A study of Bos taurus with 138 samples.

Results

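The compaction and cell junction genes are 9 of the 16706 gene symbols in the bovine count table and were chosen by name: CDH1, CTNNB1, CTNNA1, TJP1, OCLN, CLDN4, CLDN6, CLDN7 and GJA1. RNA was sequenced from Bos taurus oocytes, both immature with an intact germinal vesicle (GV) and mature, arrested in metaphase II (MII), and from 2-cell, 8-cell, morula and blastocyst embryos. At each of the 6 stages, lysates were spun through 2 sucrose gradients (A and B) that were cut into 10 fractions, and 3 transcriptomes (A, B and C) were made from whole oocytes or embryos. RNA in the heavier fractions carries more ribosomes, and the counts of F8 to F10 were added per gradient to give 2 polysome pools a stage. All oocytes came from slaughterhouse ovaries, all MII oocytes were matured in vitro, all embryos were produced in vitro, and all received cycloheximide, which holds ribosomes on their transcripts, and had the zona pellucida removed. Each library pooled many oocytes or embryos, so that single embryos cannot be seen and p-values measure the spread between pools.

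Compaction is the step at which blastomeres flatten against each other, and in cattle it follows the activation of the embryonic genome at around the 8-cell stage. E-cadherin (CDH1) joins neighbouring cells, and beta-catenin (CTNNB1) and alpha-catenin (CTNNA1) tie it to the actin cortex. Tight junctions seal the outer cells before the blastocyst cavity fills: claudins (CLDN4, CLDN6 and CLDN7) and occludin (OCLN) span the membrane, and ZO-1 (TJP1) is the scaffold beneath them. Connexin 43 (GJA1) forms gap junction channels between cells.

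Levels are given as CPM, read counts scaled to a common library size with TMM factors, which correct for composition. CPM is relative to the other RNA of a library, so a rise need not be a gain in RNA per oocyte or embryo. The transcriptomes held 3269386 to 11812567 counts, the lowest 3 totals being those of blastocysts, and the polysome pools 22543737 to 39380638. No transcript lengths were used, so levels are compared within a gene and not between genes. In RNA from whole embryos, fewer cells of a type and less RNA per cell cannot be told apart. The summed level of 10 oocyte markers was 10100 to 22300 CPM in the GV, MII and 2-cell transcriptomes and 19.6 to 660 CPM from the 8-cell stage on, and that of 7 trophectoderm markers was 257 to 480 CPM in morula and 5410 to 6320 CPM in blastocyst transcriptomes. The sum of 14 mesenchymal markers, genes of fibroblasts and other connective tissue cells, was at most 153 CPM in oocyte and 2-cell transcriptomes. It was 15500, 2910 and 2440 CPM in 8-cell transcriptomes A, B and C, with 11 or 12 of the 14 genes at 1 CPM or more, 1400 and 1760 CPM in the 8-cell pools and 352 to 880 CPM later. The sum of 12 cumulus and granulosa markers was 340 to 657 CPM in the oocyte and 2-cell transcriptomes, 423, 183 and 198 CPM in 8-cell transcriptomes A, B and C and 29.4 to 88.3 CPM afterwards. Of these 12, 4 or 5 were at 1 CPM or more in GV, 8 in MII, 4 in 2-cell and 8 to 11 in 8-cell transcriptomes. Mean levels in MII transcriptomes were 180 CPM for HAS2 and 124 CPM for TNFAIP6, genes of the expanding cumulus, against 33.1 and 0.0506 CPM in GV. STAR, which made up most of the GV sum, went the other way, from 543 CPM in GV to 179 CPM in MII. LHCGR also fell, from 2.53 to 1.89 CPM, while FOXL2, which defines granulosa cells, was at 0 from GV to the 2-cell stage. The part of these cells in the results was not tested.

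The claudins and CDH1 rose in level around compaction, while OCLN fell to a small part of its earlier level at the 8-cell stage and GJA1 did so at the morula stage. The claudins were higher in polysomes than in the transcriptome from the 8-cell stage to the blastocyst, though the 8-cell groups of CLDN7 overlapped. The catenins, OCLN and GJA1 were lower at several stages. Most of these differences were also called, in the same direction, with lighter fractions in place of the polysomes. Of 54 tests of polysomes against the transcriptome, one for each gene and stage, 11 were higher and 16 lower at an adjusted p below 0.05 in edgeR's quasi-likelihood test. Of all genes, 20% to 30.8% were called higher and 17.7% to 31% lower at the 6 stages, so these totals are near the background. All 9 genes passed the filter on low counts.

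**Figure D1:**
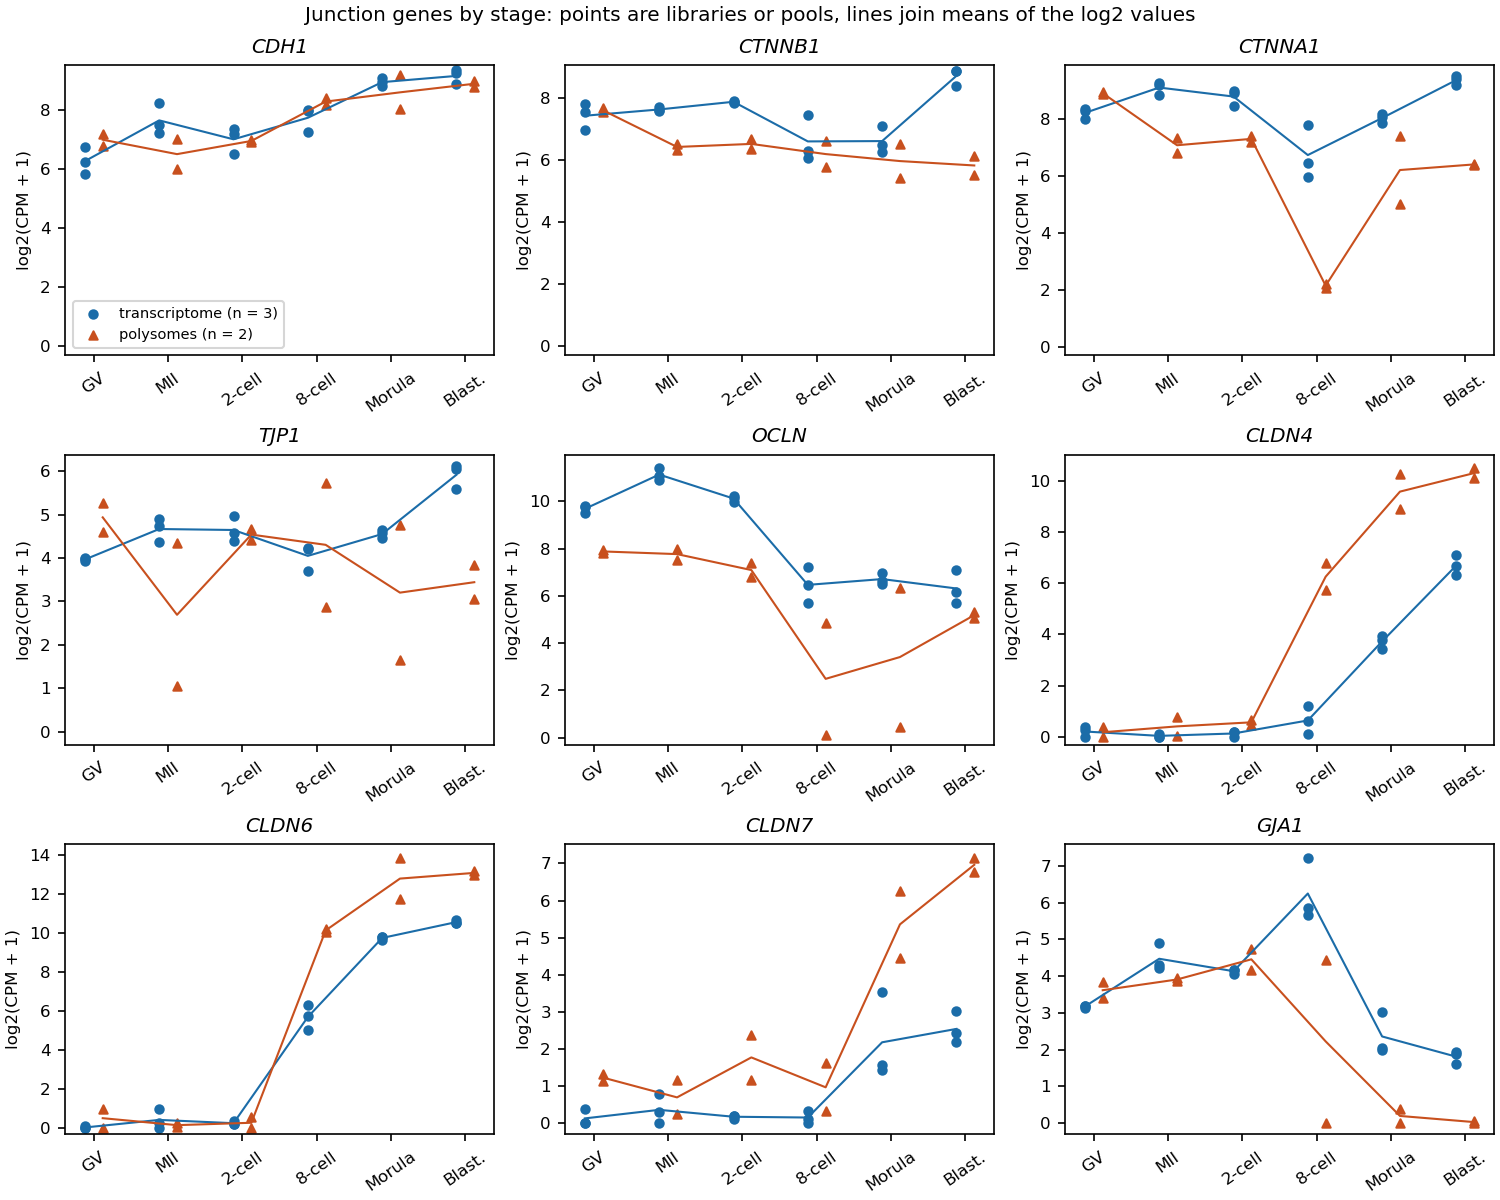
Level of each gene by stage as log2(CPM + 1), with 3 transcriptomes (blue circles) and 2 polysome pools (orange triangles) a stage; lines join the means of the log2 values. The polysome pools of CLDN4, CLDN6 and CLDN7 lie above the transcriptomes in morulae and blastocysts, those of GJA1 lie below from the 8-cell stage, and the CTNNA1 pools drop to 3.20 and 3.63 CPM in 8-cell embryos.

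CDH1 RNA stood at 107, 56.1 and 74.4 CPM in GV transcriptomes A, B and C and at 148, 180 and 304 CPM in MII transcriptomes. The groups did not overlap, and the rise was 2.66-fold (log2 1.41 ± 0.34 SE, adjusted p = 0.00453). It was not called without MII transcriptome C (log2 1.05, adjusted p = 0.0513) or without TMM factors (log2 0.95, adjusted p = 0.0593). The polysome pools held 110 and 147 CPM in GV and 130 and 62.7 CPM in MII oocytes, and these pools overlapped. The change in polysomes minus that in the transcriptome was log2 -1.83 ± 0.54 (adjusted p = 0.0285), and this call was lost without GV pool B (log2 -1.61), MII pool B (-1.40), GV transcriptome B (-1.63), GV transcriptome C (-1.79) or MII transcriptome C (-1.47), at adjusted p from 0.0585 to 0.171.

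From the 2-cell to the 8-cell stage, CDH1 in polysomes went from 121 and 126 CPM to 286 and 342 CPM. This was a 2.54-fold rise (log2 1.35 ± 0.42, adjusted p = 0.0111), not called without 2-cell pool A (log2 1.32, adjusted p = 0.0628) or B (1.38, 0.0538). The transcriptomes held 163, 144 and 90.1 CPM at the 2-cell stage and 152, 250 and 256 CPM at the 8-cell stage, overlapped, and were not called (log2 0.73 ± 0.34, adjusted p = 0.073). They rose at the next step instead, to 547, 450 and 491 CPM in morulae (2.26-fold, adjusted p = 0.0198), a call lost without 8-cell transcriptome A (log2 0.97, adjusted p = 0.104) or morula transcriptome A (1.10, 0.0681). The order of these calls was not itself shown by a test, since the difference between the changes from 2-cell to 8-cell was not called (log2 0.62 ± 0.53, adjusted p = 0.51). In blastocysts the transcriptomes held 470, 613 and 651 CPM and the pools 509 and 445 CPM, which overlapped.

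CDH1 was called lower in polysomes than in the transcriptome in MII oocytes (2.19-fold, log2 -1.13 ± 0.39, adjusted p = 0.0165) and at none of the other 5 stages, where log2 differences ran from -0.28 to 0.70 with adjusted p of 0.139 or more. MII oocytes were not tested against those stages together. The MII call was lost without MII pool B (log2 -0.73, adjusted p = 0.202) or MII transcriptome C (-0.80, 0.0902).

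CTNNB1 kept a level of 124 to 240 CPM in all oocyte and 2-cell transcriptomes. In 8-cell transcriptomes A, B and C it was 176, 66.1 and 77.2 CPM, a 2.21-fold fall from the 2-cell stage (log2 -1.15 ± 0.35, adjusted p = 0.00883). The fall was not called without 8-cell transcriptome B (log2 -0.89, adjusted p = 0.0591) or C (-0.96, 0.0504), the 2 libraries with the lower values. From 75.2, 88.6 and 138 CPM in morulae it rose to 336, 473 and 475 CPM in blastocysts, 4.26-fold (log2 2.09 ± 0.36, adjusted p = 0.000148), and the call held with each library left out in turn.

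The blastocyst rise of CTNNB1 was not seen in polysomes. The pools held 41.8 and 91.2 CPM in morulae and 69.3 and 45.1 CPM in blastocysts (log2 -0.22 ± 0.43, adjusted p = 0.844). The difference between the changes was log2 -2.31 ± 0.56 (adjusted p = 0.00933), lost without blastocyst pool B (-2.01, adjusted p = 0.0634) and with F9 and F10 as the pool (-2.0, 0.075). Blastocyst polysomes lay 7.49-fold below the transcriptome (log2 -2.90 ± 0.44, adjusted p = 1.25e-05). The lighter fractions of blastocysts were below it too, at log2 -2.11 for F3 to F5 and -1.63 for F1 and F2, both called. The low blastocyst level was thus not particular to polysomes. Smaller deficits were called in MII oocytes (pools 80.1 and 90.6 CPM against 195, 208 and 193 CPM, 2.33-fold) and 2-cell embryos (81.6 and 102 CPM against 231, 240 and 237 CPM, 2.58-fold). Both were lost without pool A of the stage, at log2 -1.19 and -1.22 and adjusted p of 0.0723 and 0.0739, and the MII call also with F9 and F10 as the pool (-1.20, 0.0528). In morulae CTNNB1 was called lower in polysomes only without morula pool B (log2 -1.27, adjusted p = 0.0353).

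CTNNA1 had the deepest drop in polysomes among the 3 cadherin complex genes. GV pools held 463 and 483 CPM and GV transcriptomes 323, 251 and 308 CPM, which were not called as different. In MII oocytes the transcriptomes were at 452, 578 and 610 CPM while the pools had fallen to 110 and 160 CPM. The fall in polysomes was 3.51-fold (adjusted p = 0.0383), called with all libraries but not without either MII pool or either GV pool (log2 -2.10 to -1.58, adjusted p 0.0923 to 0.21) with a replicate block (log2 -1.82, adjusted p = 0.0539) or with F9 and F10 as the pool (-1.52, 0.135). The difference between the polysome and transcriptome changes was log2 -2.70 ± 0.66 (adjusted p = 0.00817) and held in each of these fits. MII polysomes lay 4.05-fold below the transcriptome (adjusted p = 0.00126).

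In 2-cell embryos the CTNNA1 pools were at 144 and 167 CPM and the transcriptomes at 474, 498 and 350 CPM, a 2.84-fold deficit (adjusted p = 0.0117) that was not called without pool A (log2 -1.41, adjusted p = 0.0844) or B (-1.62, 0.0522). At the 8-cell stage the pools fell to 3.20 and 3.63 CPM, from 78 and 134 counts. The transcriptomes also fell, to 218, 60.7 and 85.5 CPM, with the highest value in the library that had the highest mesenchymal sum. The polysome fall was 45.3-fold (log2 -5.50 ± 0.61, adjusted p = 1.96e-07) and the transcriptome fall 3.63-fold (log2 -1.86 ± 0.42, adjusted p = 0.000795), and the difference between them was log2 -3.64 ± 0.68 (adjusted p = 0.00121). Without 8-cell transcriptome A the transcriptome fall was log2 -2.59 and the difference -2.91, and both stayed called.

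The morula pools of CTNNA1 held 30.7 and 168 CPM, a 29.0-fold rise over the 8-cell pools (adjusted p = 2.52e-06), while the transcriptomes went to 266, 285 and 227 CPM (log2 1.10 ± 0.42, adjusted p = 0.0749). The latter rise was called without 8-cell transcriptome A (log2 1.83, adjusted p = 0.00577), without either morula pool (1.11, 0.0111), by the likelihood ratio test (0.048) and without the filter on low counts (0.0412). The difference between the changes was log2 3.76 ± 0.68 (adjusted p = 0.000786). The morula pools were uneven, and without pool B, the higher one, the polysome rise was log2 3.18 and still called. Blastocyst transcriptomes rose to 573, 671 and 721 CPM (2.52-fold, adjusted p = 0.0212, lost without morula transcriptome A or C or blastocyst transcriptome C at adjusted p of 0.057, 0.0795 and 0.0594), and the pools held 84.5 and 81.4 CPM, between those of the morula. Without morula pool B the pools were called as rising (log2 1.44, adjusted p = 0.0379), and without morula pool A the polysome change was called as below that of the transcriptome (log2 -2.34, adjusted p = 0.00393). Polysomes were below the transcriptome 35.4-fold at the 8-cell stage, 2.61-fold at the morula stage and 7.90-fold in blastocysts (adjusted p = 1.17e-07, 0.019 and 7.15e-05). The morula deficit was lost without pool A (log2 -0.65, adjusted p = 0.228).

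**Figure D2:**
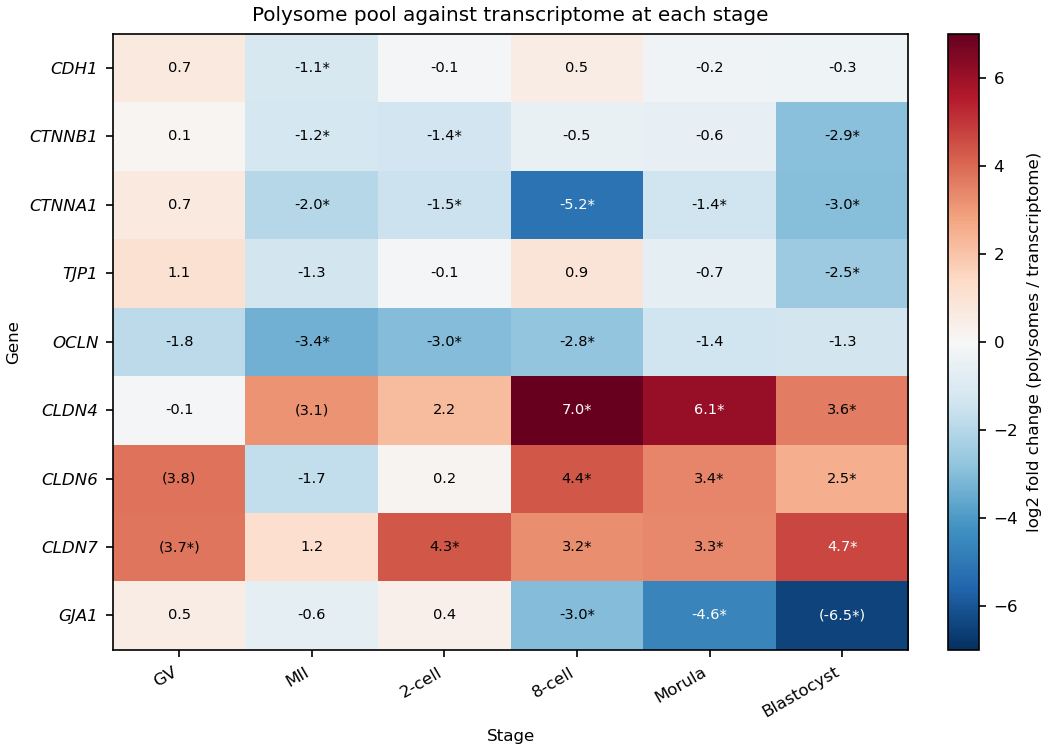
Log2 fold change of the polysome pool (n = 2) over the transcriptome (n = 3) for each gene (rows) and stage (columns). Red is higher in polysomes, a star marks an adjusted p below 0.05, and parentheses mark fitted values where a group held 3 counts or fewer. From the 8-cell stage on the claudins are starred in red, and CTNNA1 is starred in blue from MII to the blastocyst.

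CLDN4, CLDN6 and CLDN7 were near 0 in oocytes and 2-cell embryos. CLDN4 had 0 to 3 counts in each of the 9 oocyte and 2-cell transcriptomes and 0 to 0.720 CPM in the pools. CLDN6 had at most 10 counts and CLDN7 at most 6 in these transcriptomes. In MII oocytes CLDN4 had 21 counts in the pools against 1 in the transcriptomes, which was called only without MII pool B (adjusted p = 0.031) or by the likelihood ratio test (0.0235). The CLDN7 pools were a little higher, at 1.19 and 1.51 CPM in GV, 1.22 and 0.179 CPM in MII and 1.25 and 4.18 CPM in 2-cell embryos. In GV oocytes CLDN7 had 103 counts over the 2 pools against 3 over the 3 transcriptomes, a ratio of 14.7 in counts per library total (exact 95% interval 4.89 to 72.4, counting error only; adjusted p = 0.0245). At the 2-cell stage the CLDN7 pools lay 20.2-fold above transcriptomes of 0.152, 0.0799 and 0.150 CPM (adjusted p = 0.00463). The GV call was lost without GV pool B, transcriptome A or transcriptome B (adjusted p 0.0782 to 0.0978) and with F9 and F10 as the pool (adjusted p = 0.646), and the 2-cell call without 2-cell pool B (log2 3.21, adjusted p = 0.0624).

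CLDN6 appeared at the 8-cell stage. The transcriptomes went from 0.152, 0.160 and 0.301 CPM at the 2-cell stage to 32.0, 52.9 and 78.4 CPM at the 8-cell stage, a 257-fold rise (log2 8.00 ± 0.97, adjusted p = 3.40e-07). The pools went from 0 and 0.492 CPM to 1060 and 1190 CPM (log2 12.16 ± 1.27, adjusted p = 8.36e-08). The polysome rise was larger by log2 4.15 ± 1.58, which was not called (adjusted p = 0.088) and rests on 16 counts in the 2-cell pools. It was called by DESeq2 (adjusted p = 0.0287), by the likelihood ratio test (0.0232), with F9 and F10 as the pool (0.0351) and without 2-cell pool B (0.0163).

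In morulae CLDN6 reached 898, 876 and 806 CPM in the transcriptomes (15.8-fold, adjusted p = 0.00045) and 3380 and 14800 CPM in the pools (8.09-fold, adjusted p = 0.00702). The polysome rise was log2 1.61 without morula pool B, the higher one, and then not called (adjusted p = 0.104). Blastocysts held 1480, 1440 and 1620 CPM in the transcriptomes and 9390 and 7980 CPM in the pools. Polysomes were above the transcriptome 20.6-fold at the 8-cell stage, 10.6-fold at the morula stage and 5.75-fold in blastocysts (adjusted p = 3.34e-05, 0.000444 and 0.00646), and these 3 calls held with each library left out.

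CLDN4 reached high levels in polysomes while it was still near 0 in the transcriptome. The 8-cell transcriptomes had 1, 6 and 15 counts, or 0.0857, 0.538 and 1.30 CPM, whereas the 8-cell pools were at 108 and 52.4 CPM from 2623 and 1933 counts. The polysome rise from 0.584 and 0.400 CPM in 2-cell embryos was 160-fold (log2 7.32 ± 0.99, adjusted p = 2.92e-06). The transcriptome rise over this step was log2 2.56 ± 1.15 (adjusted p = 0.0641), and it was called by DESeq2 (adjusted p = 0.0336), by the likelihood ratio test (0.0146), without 8-cell transcriptome A (log2 3.09, 0.0287) and without any one GV or MII pool (2.55 to 2.57, 0.0429 to 0.0438). The difference between the rises, log2 4.76 ± 1.86, was not called (adjusted p = 0.095), though DESeq2 (0.00971) and the likelihood ratio test (0.0102) called it, and so did the fit without 8-cell pool B (0.0453).

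CLDN4 transcriptomes then rose to 14.4, 9.92 and 12.9 CPM in morulae (19.1-fold, adjusted p = 0.000479) and 135, 78.8 and 102 CPM in blastocysts (8.47-fold, adjusted p = 0.00119). The pools rose 10.6-fold to 468 and 1230 CPM in morulae (adjusted p = 0.00218) and held 1430 and 1100 CPM in blastocysts (adjusted p = 0.692). The excess of polysomes over the transcriptome was 123-fold, 68.4-fold and 12-fold from the 8-cell stage to the blastocyst (adjusted p = 2.86e-07, 7.48e-07 and 0.000221). These CLDN4 calls of polysomes against the transcriptome and from 8-cell to morula and later held with each library left out. The smaller change of polysomes from morula to blastocyst (difference log2 -2.51 ± 0.97, adjusted p = 0.0911) was called only without morula pool A (-3.03, 0.0325).

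CLDN7 was first called rising in polysomes from 8-cell to morula, a step later than CLDN4 and CLDN6, though timing was not compared between genes. In 8-cell embryos it was still at 0.0857, 0 and 0.261 CPM in the transcriptomes and 0.246 and 2.06 CPM in the pools, groups that overlapped, and the call of higher polysomes (9.54-fold, adjusted p = 0.0292) was lost without 8-cell pool B (log2 1.04, adjusted p = 0.574), 8-cell transcriptome A (3.08, 0.0792) or B (2.71, 0.0981) and with F9 and F10 as the pool (0.42, 0.849). Morula transcriptomes held 10.5, 1.97 and 1.72 CPM and morula pools 21.0 and 75.5 CPM. Both rose from the 8-cell stage, 38.6-fold in the transcriptome (adjusted p = 0.00422) and 41.1-fold in polysomes (adjusted p = 0.0029), calls that held with each library left out. In blastocysts the transcriptomes were at 7.06, 3.52 and 4.40 CPM and the pools at 142 and 108 CPM, an excess of 25.1-fold (log2 4.65 ± 1.08, adjusted p = 0.00142). The morula excess of 10.1-fold (adjusted p = 0.00883) was lost without pool B (log2 2.13, adjusted p = 0.12) and with F9 and F10 as the pool (2.87, 0.0528).

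The excess of the claudins over the transcriptome was not particular to polysomes. With the counts of F3 to F5, the monosome fractions, in place of F8 to F10, CLDN4 was higher than in the transcriptome by log2 7.18, 7.21 and 2.77 from the 8-cell stage to the blastocyst, and CLDN7 by 5.79, 2.23 and 3.05, all called. CLDN6 was higher by log2 2.82 in 8-cell embryos and 1.75 in morulae, both called, and by 1.21 in blastocysts (adjusted p = 0.128). With F1 and F2, which hold mainly free RNA, CLDN4 was called higher at all 3 stages (log2 5.27, 5.59 and 2.78), CLDN6 in 8-cell embryos (2.77) and morulae (1.80) and CLDN7 in 8-cell embryos (4.38). These pools were set against the same transcriptomes, so the 3 pools share their comparison group. Most deficits were not particular to polysomes either. OCLN in MII oocytes was at log2 -5.09 with F3 to F5 and -4.98 with F1 and F2. It was at -2.99 and -2.85 in 2-cell and -2.46 and -2.64 in 8-cell embryos, all called. In morulae (-1.86 and -2.30) and blastocysts (-3.07 and -4.52) OCLN was called lower with both pools, though not in polysomes. In blastocysts CTNNA1 (-2.21 and -2.37), CTNNB1 (-2.11 and -1.63) and GJA1 (-8.46 and -7.78) were lower too, all called. CTNNA1 was also called lower with both pools in MII oocytes (-2.15 and -2.53, against -2.02 in polysomes). The same held in 8-cell embryos (-1.88 and -2.37, against -5.15) and morulae (-2.47 and -2.45, against -1.38). Other deficits differed. CTNNA1 in 2-cell embryos was called with neither pool (-0.55 and -0.87), and GJA1 in morulae was called higher with F1 and F2 (1.97).

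OCLN had its highest transcriptome levels before the embryonic genome is active. It stood at 715, 876 and 881 CPM in GV oocytes, 2150, 1930 and 2710 CPM in MII oocytes and 1140, 1210 and 990 CPM in 2-cell embryos. At the 8-cell stage it was at 50.8, 88.2 and 148 CPM, an 11.6-fold fall (log2 -3.54 ± 1.04, adjusted p = 0.00674) that held with each library left out, and it was 50.2 to 135 CPM in morulae and blastocysts.

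The OCLN pools held 227 and 242 CPM in GV, 184 and 255 CPM in MII and 168 and 109 CPM in 2-cell embryos, below all transcriptomes of the same stage. The GV difference was not called (log2 -1.81 ± 1.13, adjusted p = 0.208). OCLN in polysomes was 10.3-fold below the transcriptome in MII oocytes (adjusted p = 0.0222) and 8.06-fold below in 2-cell embryos (adjusted p = 0.0398). The MII call was lost without MII pool A (log2 -3.21, adjusted p = 0.123) or B (-3.65, 0.0862), and the 2-cell call without any one of the 5 2-cell libraries (log2 -3.37 to -2.74, adjusted p 0.0529 to 0.188) and with a replicate block (log2 -2.91, adjusted p = 0.0586) or F9 and F10 as the pool (-2.95, 0.0568). The 2-cell to 8-cell fall in polysomes was 9.79-fold (adjusted p = 0.0359), lost without 2-cell pool A (log2 -2.94, adjusted p = 0.105), 2-cell pool B (-3.57, 0.0524) or 8-cell pool A (-2.30, 0.123).

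In 8-cell embryos and morulae, gradients A and B gave very different OCLN levels. The 8-cell pools held 0.082 and 28.1 CPM, or 2 and 1035 counts, and the morula pools 0.385 and 80.7 CPM. The 8-cell deficit of 6.77-fold was at the threshold (adjusted p = 0.0494) and was kept in 4 of 30 fits with a library left out, being lost also with a replicate block (log2 -2.87, adjusted p = 0.0614) and without the filter on low counts (-2.70, 0.0501). Its value without 8-cell pool A was log2 -1.77. The morula deficit was not called (log2 -1.37 ± 1.11, adjusted p = 0.308) but was log2 -8.07 without morula pool B (adjusted p = 0.00044). Changes of the OCLN pools into and out of these stages turned direction with a pool left out, from log2 -5.16 without morula pool B to 8.83 without 8-cell pool B between 8-cell and morula. Blastocyst pools were at 38.6 and 32.4 CPM, below transcriptomes of 135, 50.2 and 71.0 CPM but not called (adjusted p = 0.372).

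TJP1 was measured at 14.3 to 30.4 CPM in the transcriptomes of oocytes and 2-cell embryos, 12 to 23.9 CPM in 8-cell embryos and morulae and 46.9, 65.1 and 68.8 CPM in blastocysts. The blastocyst values lay above all morula values, but the 1.42 log2 difference was not called (SE 0.75, adjusted p = 0.185). Its pools were uneven, at 19.2 and 1.07 CPM in MII, 52.2 and 6.34 CPM in 8-cell embryos and 2.12 and 26.2 CPM in morulae. The single call was a 5.85-fold deficit of polysomes in blastocysts, where the pools held 13.3 and 7.28 CPM (log2 -2.55 ± 0.92, adjusted p = 0.0293). It was lost without blastocyst pool A (adjusted p = 0.0725), pool B (0.177), transcriptome B (0.052) or transcriptome C (0.0559). Deficits in MII oocytes and morulae were called only without MII pool A (log2 -4.58, adjusted p = 0.00281) or morula pool B (-3.41, 0.0164), and the same 2 omissions gave the other TJP1 calls between stages: polysome changes of log2 -4.84 between GV and MII, 4.38 between MII and 2-cell and -3.75 between 8-cell and morula (adjusted p = 0.0248, 0.0226 and 0.0137).

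GJA1 stood at 7.81 to 29.0 CPM in oocyte and 2-cell transcriptomes and at 9.56 to 25.9 CPM in their pools, with no call between them. The rise from GV to MII transcriptomes was called only without either 8-cell pool (log2 1.44, adjusted p = 0.0464 and 0.0474). The 8-cell transcriptomes A, B and C held 149, 56.8 and 49.8 CPM against 17.0, 15.7 and 17.1 CPM at the 2-cell stage (5.13-fold higher, log2 2.36 ± 0.96, adjusted p = 0.0427). This call was lost without 8-cell transcriptome A (log2 1.68, adjusted p = 0.189), any 2-cell transcriptome (2.32 to 2.38, 0.0974 to 0.105), any GV transcriptome (2.36, 0.0505) and without the filter on low counts (2.23, 0.0518). The order of the 8-cell libraries in GJA1 was that of their mesenchymal sums, 15500, 2910 and 2440 CPM, and the part of these cells in the GJA1 level was not tested.

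GJA1 then fell to 2.99, 3.13 and 7.22 CPM in morula transcriptomes (19.2-fold, log2 -4.26 ± 1.05, adjusted p = 0.00691), a call kept with each library left out, at log2 -3.59 without 8-cell transcriptome A. Blastocyst transcriptomes held 2.06, 2.70 and 2.80 CPM. In polysomes GJA1 had 0 counts in 8-cell pool A and 772 counts (20.9 CPM) in pool B, 0 and 11 counts in the morula pools and 1 and 0 counts in the blastocyst pools. The 8-cell and morula pools overlapped, and the polysome fall between them (57.7-fold, adjusted p = 0.00299) rested on 8-cell pool B: without it the change was log2 4.69 in the other direction (adjusted p = 0.052). Polysomes were below the transcriptome 8.11-fold in 8-cell embryos (adjusted p = 0.0292, lost without 8-cell transcriptome A at log2 -2.35 and adjusted p = 0.103, and with F9 and F10 as the pool at -2.57 and 0.0709) and 24.4-fold in morulae (adjusted p = 0.00632, lost without morula pool A at -3.80 and 0.055). In blastocysts 1 count over the 2 pools against 34 over the 3 transcriptomes gave a ratio of 120 in counts per library total (exact 95% interval 20.0 to 4860, counting error only; adjusted p = 0.00414, and 0.0525 without blastocyst pool B).

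By stage, the 9 genes compare with all 14612 tested genes as follows. In GV oocytes 1 gene (CLDN7) was higher in polysomes and 0 were lower, where 22.2% of all genes were called higher and 17.7% lower. CLDN6 was also called higher by DESeq2, by the likelihood ratio test and without GV pool B (adjusted p = 0.0229, 0.00928 and 0.017), and CLDN6 and CLDN7 were under 0.05 before adjustment. In MII oocytes 0 were higher and 4 lower (CDH1, CTNNB1, CTNNA1 and OCLN), against 30.8% and 26.7% of all genes, and 4 of the 9 were called by DESeq2 and 5 by the likelihood ratio test. At the 2-cell stage 1 was higher and 3 lower, against 29.1% and 21.9%. In 8-cell embryos 3 were higher and 3 lower, against 28% and 31%. In morulae 3 were higher and 2 lower, against 26.5% and 25.2%, and in blastocysts 3 were higher and 4 lower, against 20% and 20.1%. The median log2 difference of the 9 genes was 0.68, -1.22, -0.10, 0.52, -0.60 and -1.27 from GV to the blastocyst, and that of all genes 0, 0, 0.18, -0.26, 0 and -0.08.

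Between stages, a call also required a fold change above 2. From GV to MII, 1 of the 9 changed in the transcriptome (CDH1) and 1 in polysomes (CTNNA1), where 17.1% and 5.37% of all genes were called. From MII to the 2-cell stage 0 of the 9 changed in the transcriptome or in polysomes by edgeR's quasi-likelihood test, with 0 under 0.05 before adjustment and 0 called by DESeq2 or the likelihood ratio test, where 12% and 8.51% of all genes changed. From 2-cell to 8-cell, 5 changed in each (CLDN6 and GJA1 up, CTNNB1, CTNNA1 and OCLN down in the transcriptome, and CLDN6, CLDN4 and CDH1 up, CTNNA1 and OCLN down in polysomes), against 50.1% and 46.3%. This share is near that of all genes. From 8-cell to morula, 5 changed in each, against 14.4% and 36.2%. From morula to blastocyst 3 rose in the transcriptome (CTNNB1, CTNNA1 and CLDN4), against 21.6%, and 0 changed in polysomes by edgeR, DESeq2 or the likelihood ratio test (0 under 0.05 before adjustment), against 13.9%. Without morula pool B, CTNNA1 (log2 1.44) and OCLN (6.50) were called there.

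The polysome change differed from the transcriptome change in 5 of 45 tests. These were 2 from GV to MII (CDH1 and CTNNA1), 1 from 2-cell to 8-cell and 1 from 8-cell to morula (CTNNA1 in both) and 1 from morula to blastocyst (CTNNB1), against 10.6%, 12.2%, 12.5% and 12.3% of all genes, shares near that of the 9. From MII to the 2-cell stage it was 0 of 9 by the 3 tests (0 under 0.05 before adjustment), against 1.81%.

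**Figure D3:**
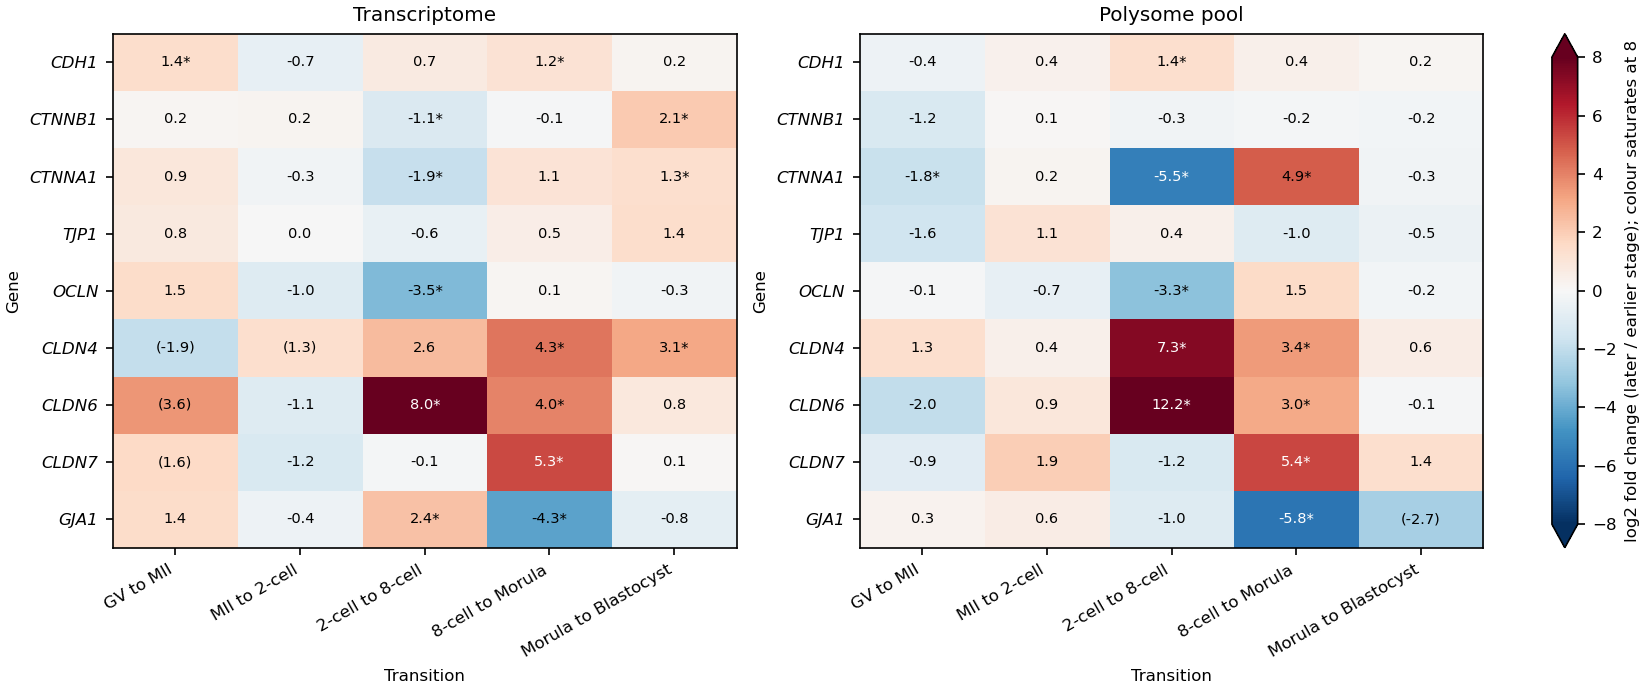
Log2 fold change of each gene (rows) between consecutive stages (columns) in the transcriptome (left, n = 3 a stage) and in the polysome pools (right, n = 2 a stage). Stars mark an adjusted p below 0.05 with a fold change above 2, and parentheses mark fitted values where a stage held 3 counts or fewer. From 2-cell to 8-cell CLDN4 is starred in polysomes only, and from morula to blastocyst no polysome change is starred.

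Heavy and light fractions of the same gradients were compared without the transcriptomes, as F8 to F10 against F3 to F5. With all libraries the call made was CTNNA1 in 8-cell embryos, 9.75-fold lower in the heavy fractions (log2 -3.29 ± 0.58, adjusted p = 0.00537), where 9.35% of 14873 genes were called. It was lost without 8-cell gradient A (log2 -3.56, adjusted p = 0.0552), and without gradient B CLDN7, OCLN and GJA1 were called lower as well (log2 -5.15, -7.86 and -11.64, adjusted p = 0.035, 0.0459 and 0.0398). In gradient A CTNNA1 held 29.3, 29.4, 30.1 and 0.117 CPM from F2 to F5 and 0, 8.17 and 0 CPM in F8, F9 and F10. In gradient B it held 51.9, 61.9, 28.4 and 30.8 CPM from F2 to F5 and 0.0844, 7.59 and 1.25 CPM in F8, F9 and F10. The heavy fractions were below F2 to F4 in both gradients, but F9 of gradient A was above its F5. At the other stages 0 of the 9 genes were called by edgeR, against 0.498% of all genes in GV, 0.437% in MII, 0% in 2-cell (22 genes by the likelihood ratio test and 196 by DESeq2), 1.59% in morula and 1.43% in blastocyst. Under 0.05 before adjustment were CDH1 and CLDN6 in GV, CDH1 in MII (called without either morula gradient, adjusted p = 0.0411 and 0.04) and 2-cell, and no gene in morulae and blastocysts. DESeq2 called 2, 1, 1, 0 and 1 of the 9 at these 5 stages and the likelihood ratio test 1, 0, 0, 0 and 0. On simulated counts for blastocysts, this comparison recovered 0% of 200 genes changed by 2 on the log2 scale. The simulation gave each gene the same mean at all stages, and the real blastocyst data had calls for 1.43% of genes. It therefore does not set the size of difference that could be detected at each stage. The 0 calls do not show that heavy and light fractions were equal.

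Along the gradient CDH1 leaned to the monosome fractions in oocytes and 2-cell embryos. In GV oocytes it held 302, 343 and 279 CPM in F3, F4 and F5 of gradient A and 86.8, 147 and 91.5 CPM in F8, F9 and F10, and in gradient B 264, 272 and 328 CPM against 106, 161 and 157 CPM. Spearman's rho with fraction number over F3 to F10 (16 libraries) was -0.716 in GV, -0.710 in MII and -0.811 in 2-cell embryos (permutation test with 100000 resamples, two-sided, adjusted p = 0.0106, 0.0229 and 0.00516 over all genes tested). By this test 36.8% of the genes tested had a called trend in either direction in GV, 19.3% in MII and 19.8% in 2-cell. The share was 16.5% in 8-cell, 1.52% in morula and 7.69% in blastocyst. Of the 9 genes, 2, 2, 4, 2, 0 and 2 had a called trend. Genes with a mean below 1 CPM over F3 to F10 of a stage were not tested. Among the 9 these were CLDN4 and CLDN6 from GV to the 2-cell stage, CLDN7 in MII, and GJA1 in morulae and blastocysts. In morulae 1 of the 9, CLDN4, was under 0.05 before adjustment. Blastocyst values were 184, 354 and 345 CPM in F3 to F5 and 383, 373 and 470 CPM in F8 to F10 of gradient A, and 411, 302 and 132 CPM and 243, 392 and 400 CPM in gradient B (rho 0.426, adjusted p = 0.328, permutation test).

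CLDN6 rose towards the heavy fractions in 8-cell embryos (rho 0.757, adjusted p = 0.0148) and blastocysts (rho 0.858, adjusted p = 0.00414, permutation test). Blastocyst gradient A held 3320, 2730 and 3040 CPM in F3 to F5 and 8150, 6680 and 7660 CPM in F8 to F10, and gradient B 2490, 2810 and 3280 CPM and 7010, 5170 and 6900 CPM. The morula gradients differed: in gradient A F3 to F5 held 3800, 2190 and 2030 CPM and F8 to F10 2260, 2060 and 2790 CPM, while in gradient B F3 to F5 held 1910, 2530 and 2010 CPM and F8 to F10 20000, 9540 and 7750 CPM. CLDN7 rose in blastocysts (rho 0.728, adjusted p = 0.0312), from 28.7, 38.9 and 59.7 CPM in F3 to F5 to 126, 114 and 97.2 CPM in F8 to F10 of gradient A and from 22.6, 38.6 and 13.6 CPM to 92.7, 105 and 56.7 CPM in gradient B. CTNNA1 rose along the gradient in GV oocytes (rho 0.751, adjusted p = 0.00606) and fell in 2-cell (rho -0.751, adjusted p = 0.0134) and 8-cell embryos (rho -0.677, adjusted p = 0.0369). OCLN rose in MII oocytes (rho 0.870, adjusted p = 0.00148), and CTNNB1 (rho -0.722, adjusted p = 0.0182) and GJA1 (rho -0.680, adjusted p = 0.0321) fell in 2-cell embryos, each by the same permutation test. Fractions of one gradient are not independent samples, which this test treats them as.

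Single fraction libraries were often empty for the lower genes in later stages. GJA1 was at 3 counts or fewer in 0 of the 20 fraction libraries at the GV and 2-cell stages, 2 in MII oocytes, 12 at the 8-cell stage, 15 in morulae and 19 in blastocysts. OCLN was at this floor in 6 of 20 libraries in 8-cell embryos and 6 in morulae, and TJP1 in 3 and 7, while CDH1 was above it in all fraction libraries of all stages. CLDN6 was at the floor in 15, 16 and 11 libraries in GV, MII and 2-cell and in 0 at each later stage, and CLDN4 in 12, 17 and 13 and then in 2, 0 and 0. CLDN7 took no single direction, with 4, 13, 3, 9, 2 and 1 libraries at the floor from GV to the blastocyst.

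**Figure D4:**
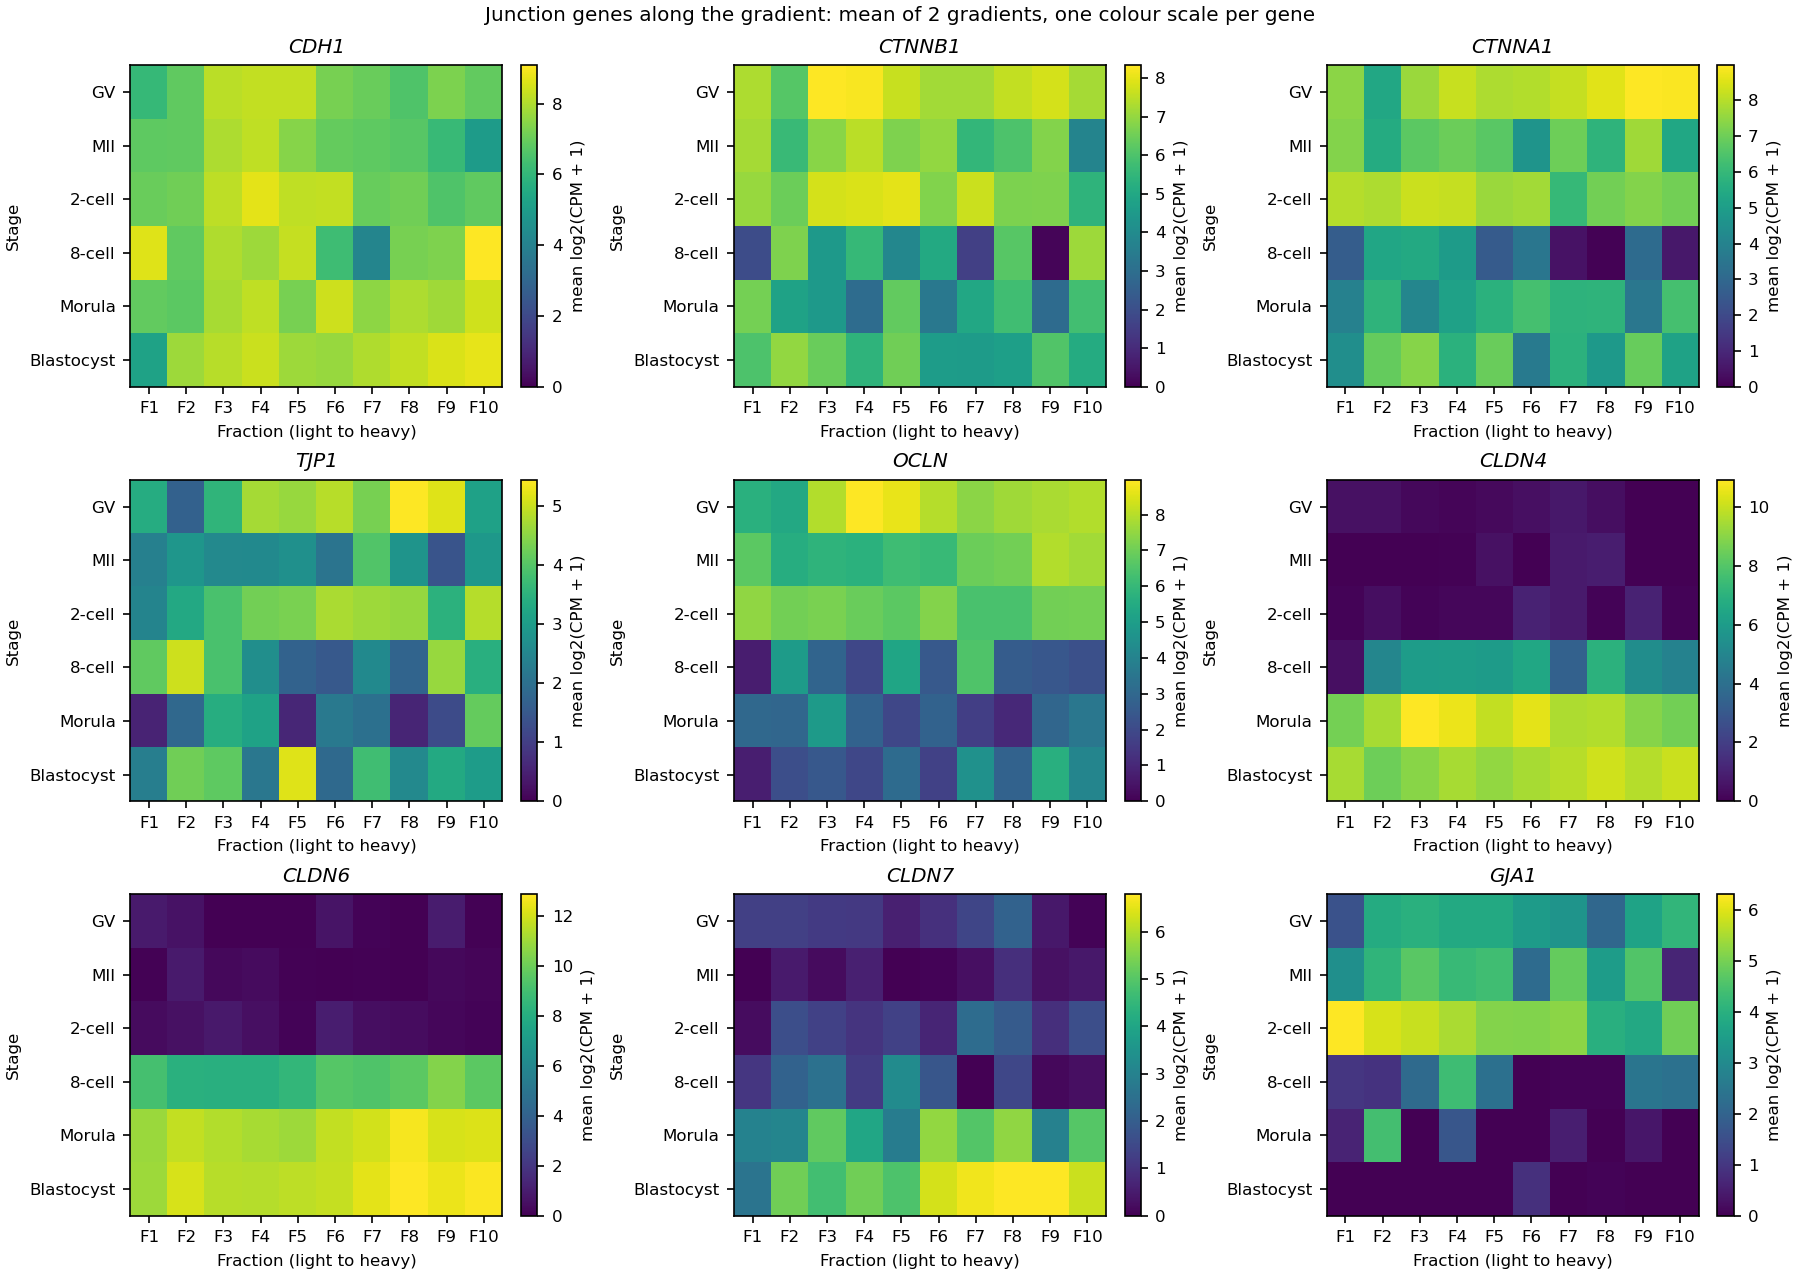
Mean log2(CPM + 1) of the 2 gradients for each gene by stage (rows) and fraction F1 to F10 (columns, light to heavy), with one colour scale per gene. CLDN4, CLDN6 and CLDN7 brighten across nearly all fractions from the 8-cell stage or the morula on, CTNNA1 darkens in F7 to F10 of 8-cell embryos, and GJA1 is dark in nearly all blastocyst fractions.

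The other genes of these structures came from 5 lists of adherens junction, tight junction, gap junction, desmosome and polarity genes, with 103 in the table and 93 tested, the 9 genes included. In the transcriptome from 2-cell to 8-cell, 5 of 19 adherens junction genes rose and 5 fell, 8 and 9 of 24 tight junction genes, 3 and 6 of 10 gap junction genes, 5 and 1 of 12 desmosome genes and 6 and 11 of 28 polarity genes. Of all genes, 26.6% rose and 23.5% fell. The median log2 change was 0.60, -0.52, -2.98, 1.15 and -0.77 in these lists and 0.03 in all genes. The 2 other junction genes with the largest fitted rises were desmocollins, adhesion proteins of desmosomes: DSC3 with 12.1, 26.2 and 28.6 CPM and DSC2 with 14.4, 11.7 and 18.2 CPM in 8-cell transcriptomes. Both were at 0 in the 2-cell transcriptomes, so against a floor of 3 counts over the group they were at least 288-fold and 192-fold higher (adjusted p = 0.00122 and 1.90e-05). The largest falls were in the connexins GJB2, from 2.69, 1.55 and 1.97 CPM to 0 in all 3 libraries (at least 23.8-fold lower, adjusted p = 0.000368), and GJA4, from 84.5, 75.8 and 94.9 CPM to 0.943, 1.52 and 2.09 CPM (55.8-fold, adjusted p = 3.35e-08). The 8-cell pools A and B still held 163 and 176 CPM of GJA4 and 0 and 0 CPM of GJB2. They held 0 and 0.0542 CPM of DSC2 and 0 and 12.1 CPM of DSC3.

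In polysomes from morula to blastocyst, 1 of 19 adherens junction genes fell, 3 of 24 tight junction genes rose and 1 fell, 1 of 12 desmosome genes rose and 2 of 28 polarity genes rose and 1 fell, where 5.79% of all genes rose and 8.13% fell. Of 10 gap junction genes 0 were called by edgeR's quasi-likelihood test and by DESeq2 and 1 by the likelihood ratio test, with 2 under 0.05 before adjustment. The median log2 change was 0.14, 0.12, 0.80, -0.07 and -0.19 in these lists and -0.02 in all genes. DSC2 went from 0 in both pools to 8.01 and 6.72 CPM (at least 136-fold higher, adjusted p = 0.00152) and CLDN1, another tight junction claudin, from 0 in both to 9.31 and 5.28 CPM (at least 135-fold, adjusted p = 0.00217). CLDN1 was not new in blastocysts. Its pools had held 7.47 and 5.46 CPM in GV, 4.39 and 14.9 CPM in MII and 4.34 and 9.38 CPM in 2-cell embryos. AJUBA, a LIM protein found at adherens junctions, fell from 19.6 and 22.2 CPM to 0.218 and 0.0426 CPM (153-fold, adjusted p = 2.45e-05). PARD3B, a polarity protein, had 0 and 1.81 CPM in the morula pools and 0 in both blastocyst pools (adjusted p = 0.0195), so its groups overlapped.

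The genes most like each of the 9 were taken by Pearson's r of log2(CPM + 1) over the 30 pools and transcriptomes, among 11501 genes, as a description with libraries of one stage sharing their batch. The patterns closest to CDH1 were MSANTD2 (r = 0.918), SLC1A1 (0.890) and CCDC117 (0.888). Closest to CTNNB1 were RAB6A (0.847), COPA (0.821) and WASL (0.820), and to CTNNA1 ZWILCH (0.912), GAB1 (0.904) and MYO1D (0.885). TJP1 had ADNP2 (0.836), ELOVL5 (0.728) and NFKB1 (0.723), and OCLN had PRIM2 (0.969), APAF1 (0.955) and FBXL5 (0.945). CLDN4 had TTYH2 (0.982) and KRT15 (0.973), and CLDN6 had ATAD3A (0.993) and CAPN5 (0.982). CLDN7 had ERBB2 (0.926), URAD (0.925) and VGLL1 (0.924). GJA1 had VCAN (0.894), SLC16A12 (0.883) and UPK1B (0.874). Among the 9 genes themselves, CLDN4 and CLDN6 had r = 0.889 over 18 transcriptomes and 0.986 over 12 pools, and CTNNB1 and CTNNA1 had 0.827 and 0.566.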

How the data were processed

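The authors sequenced 120 fraction libraries and 18 transcriptomes with the Smart-seq V4 kit (about 100 oocytes or embryos a gradient, 20 a transcriptome), estimated reads per gene with Salmon and deposited expected counts for 16706 gene symbols, unnormalized. The methods name Ensembl annotation on ARS-UCD1.2, and the submitters' processing notes UMD3.1, so no coordinates are given. Of the values, 11.7% are not whole, and they were rounded for the tests. Groups and replicate letters came from titles, and 0 columns were left unmapped. No libraries were identical in the 78 pairs compared.

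F8 to F10 were added per gradient. The 12 pools and 18 transcriptomes were fitted as 12 groups in edgeR 4.0.16 (R 4.3.3, TMM, filterByExpr, quasi-likelihood F test), and F8 to F10 with F3 to F5 in a model of 24 pools. Benjamini-Hochberg adjustment ran over all genes of a contrast, and a call is an adjusted p below 0.05, with a fold change above 2 between stages. The SE is the log2 fold change over the root of F. DESeq2 1.42.0 and edgeR's likelihood ratio test, which the study used, were alternatives. The models were tested on simulated data with 200 genes changed by 2 on the log2 scale: 37% were recovered for polysomes against transcriptome in 8-cell embryos, 39.5% for the transcriptome from 2-cell to 8-cell and 0% for heavy against light fractions in blastocysts. Folds against 3 counts or fewer were replaced by the ratio of summed counts with an exact 95% interval or, at 0 counts, by a bound from 3 counts over the group. Intervals cover counting error only. Reads shared by similar genes, such as claudins, are split by Salmon's estimate, and this was not examined further.

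The 9 genes, the gene lists and the markers were chosen with earlier results of these data known. Other named junction genes are the 2 with the largest called change in each direction for the transcriptome from 2-cell to 8-cell and for polysomes from morula to blastocyst, and the 3 genes most like each member in log2(CPM + 1) at 10 CPM or more in 2 libraries, except for an item that is not reported here. The letters of pools and transcriptomes were not treated as pairs. F8 to F10 and F3 to F5 of a letter are the same gradient, and their deviations correlated at -0.0774 to 0.169 over the stages. Figures were drawn with matplotlib.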

Additional observations from a re-analysis of the deposited data

Results flagged for a closer look

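The polysome change and the transcriptome change of a gene between consecutive stages differed by the interaction test in 5 of 45 cases, where 1.81% to 12.5% of all genes were called in the same 5 contrasts. From GV to MII, CDH1 changed by log2 -1.83 in polysomes relative to the transcriptome and CTNNA1 by log2 -2.70. CTNNA1 differed again from 2-cell to 8-cell, at log2 -3.64, and in the other direction from 8-cell to morula, at log2 3.76. CTNNB1 differed from morula to blastocyst at log2 -2.31. Adjusted p-values in this order were 0.0285, 0.00817, 0.00121, 0.000786 and 0.00933 in edgeR's quasi-likelihood test. The 3 CTNNA1 calls held with each library left out, and the libraries on which the CDH1 and CTNNB1 calls rest are named with their values above. The CTNNB1 call was also lost with F9 and F10 as the pool (log2 -2.0, adjusted p = 0.075). Groups held 2 or 3 samples, so single libraries were not tested for standing apart.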

How the results depend on the processing

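Of 58 calls among 243 tests of the 9 genes, 47 held under every other setting of test, scaling, filter and block tried and with the pool of F9 and F10, and 29 also with each library left out. RLE size factors changed 0 calls, the likelihood ratio test added 11 and DESeq2 14. The replicate block removed 3, OCLN in polysomes against the transcriptome at the 2-cell (log2 -2.91) and 8-cell stages (-2.87) and CTNNA1 in polysomes from GV to MII (-1.82), and changed no other. Letters did not pair pools with transcriptomes (r -0.0687 to 0.0355). F9 and F10 as the pool removed 8 and added 4.

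Higher calls in polysome minus transcriptome change went from 1 to 3 by the likelihood ratio test, 3 by DESeq2, 2 with F9 and F10, and 1 to 4 with a library left out. For heavy against light fractions, higher calls went from 0 to 1, 2 and, by the Spearman trend, 5. Lower ones went from 1 to 2, 5 and 7, to 2 with F9 and F10, and 0 to 4 with a gradient left out. Pools chosen after seeing the data turned 5 values that were called with F8 to F10 or with the other pool. With F3 to F5 these were CDH1 in MII (0.41) and 2-cell (1.55) and CTNNB1 in 2-cell (0.21). With F1 and F2 they were CTNNA1 in GV (-1.29) and GJA1 in morulae (1.97). Some values called with neither pool turned as well. Examples are CLDN6 in GV with F3 to F5 (3.82 to -2.32) and TJP1 in GV with F1 and F2 (1.06 to -1.19). The causes were not tested.

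Some changes that were called with all pools or with a pool left out turned direction between these fits. They were the OCLN polysome minus transcriptome change from 2-cell to 8-cell (-7.05 to 1.25) and 8-cell to morula (-5.29 to 8.70). So did OCLN polysomes from 8-cell to morula (-5.16 to 8.83) and morula to blastocyst (-1.16 to 6.50). GJA1 turned from 8-cell to morula in polysomes (-10.52 to 4.69) and in the difference (-6.26 to 8.95), and CTNNA1 polysomes from morula to blastocyst (-1.0 to 1.44). The lowest and highest values come from leaving out 8-cell or morula pools, whose gradients A and B differed for these genes.

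Over all genes, the likelihood ratio test and DESeq2 moved the heavy against light calls most, from 1391 to 3182 and 3662 in 8-cell embryos and from 213 to 1090 and 1448 in blastocysts. Polysome changes from GV to MII went from 784 to 1312 and 1391, and the difference from MII to 2-cell from 264 to 690 and 841 (171 with the replicate block). Without TMM factors, which moved the median of all genes by up to 0.465 (RLE 0.239), higher against lower calls went from 2926 and 2934 to 2377 and 3588 for blastocyst polysomes, from 966 and 1531 to 351 and 2099 for the transcriptome from GV to MII and from 877 and 871 to 1713 and 432 from MII to 2-cell.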
